A study of Mus musculus with 10 samples.

Results

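The 43 genes described here are immediate early and dissociation-response genes, that is, genes whose transcripts appear within minutes to hours of a stimulus or of tissue handling. They were taken by symbol from a written list that was drawn up with earlier results of these data known, and all 43 were found among the 53379 genes counted in each library. The libraries came from E16 mouse neocortex, from 3 cKO-Cdkn1c-MADM-7 embryos (cKO) and 7 control MADM-7 embryos (control), with 400 sorted cells and 1 embryo per library. Both groups carried Emx1-Cre and the chromosome 7 MADM cassettes (MADM-7-GT and MADM-7-TG), which label sparse dividing progenitors and their daughters with GFP, tdT or both. The cKO embryos carried in addition the Cdkn1c-flox allele on both chromosomes, so that the gene encoding the cell-cycle inhibitor p57KIP2 was removed wherever Emx1-Cre had acted, in labelled and unlabelled cells of the excitatory cortical lineage. The background is given as CD1 for the samples and as a mix of C57BL/6J and CD1 for the colony. GFP+, tdT+ and GFP+/tdT+ cells were sorted together, so each library of either genotype pooled cells with and without uniparental disomy of chromosome 7. The litter, the sex and the day of dissection of each embryo are not given in the sources used here. The comparison addressed how gene expression in the Emx1+ lineage differs when Cdkn1c is lost.

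Immediate early genes are transcribed without new protein synthesis, because their regulators, SRF with its ETS partners, CREB and MEF2, are already bound or are activated by phosphorylation through MAP kinases and calcium signals. The products fall into classes: AP-1 subunits and zinc-finger factors that start a secondary wave of transcription, orphan nuclear receptors, neuronal effectors such as Arc, and feedback proteins (phosphatases, kinases and mRNA decay factors) that end the response. In neurons these genes report electrical activity, and in any tissue they can be induced while cells are dissociated with warm protease, as these cortices were with papain before FACS. Polyadenylated RNA from the sorted cells was read by Smart-Seq2, a full-length method without molecular identifiers.

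Levels are given as CPM, the reads of a gene per 1000000 reads on genes after TMM scaling, and differences as log2 fold changes of cKO over control with their SE from edgeR. Reads on genes ran from 1738220 to 3362487 per library. Cdkn1c itself (ENSMUSG00000037664.13, chromosome 7) stood at 10.7, 3.91 and 7.57 CPM in cKO and between 67.0 and 130 CPM in the controls, with a log2 fold change of -3.66 (SE 0.38, edgeR adjusted p = 3.68e-06, n = 3 and 7) and no overlap between the groups. Markers of the labelled tissue were present in all libraries. The summed level of 9 projection neuron markers was 5190 to 6680 CPM in cKO and 7490 to 10000 CPM in control, and 3 of the 9 were called lower, while none of 8 radial glial markers passed the test (1300 to 2480 CPM in cKO, 1480 to 2500 CPM in control). All 5 Cajal-Retzius cell markers were called higher in cKO, with sums of 530 to 637 CPM against 16.2 to 160 CPM. In a bulk sample, fewer cells of a type and less RNA per cell cannot be told apart, and this holds for every value below. Microglial markers (11 genes, Fcrls, Csf1r and C1qa among them) summed to 69.4 CPM in cKO replicate 3 and to no more than 19.4 CPM elsewhere. Endothelial markers (8 genes, Cldn5 the highest of the defining ones) summed to 30.1 CPM in cKO replicate 2 and to no more than 18.1 CPM elsewhere. Erythroid genes (7, with Hbb-y at 0 in all) varied within both genotypes, at 2290, 34.4 and 20.2 CPM in cKO and from 0.713 to 1810 CPM in the controls. The share of aligned reads that fell outside genes was 8.64% to 15.5% in cKO and 5.47% to 16.7% in control. Of the 7 interneuron markers, 1 (Dlx2) was called higher (sums 53.1 to 111 CPM in cKO, 16.8 to 71.0 CPM in control), none of 5 intermediate progenitor markers passed the test (438 to 700 and 488 to 868 CPM), and the 4 pericyte genes were too low to test (2.73 to 8.84 and 1.76 to 5.77 CPM, Abcc9 at 0 in all).

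Of the 43 members, 36 averaged 10 reads or more per library and were tested. The 7 others are given by their read counts below. In cKO, 7 members were higher at an adjusted p under 0.05: Fos, Fosb, Egr1, Egr3, Klf4, Npas4 and Dusp1. These are 16.3% of the 43 members and 19.4% of the 36 tested, where 2.27% of all 11551 genes tested were called higher. These shares are given side by side without a test, since the list was not independent of these data. In addition, Egr3 and Arc were tested only because of their level in cKO (under 10 reads on average in the controls). No member was called lower (0.883% of all genes tested, and 3.15% in either direction), although at an unadjusted p under 0.05 the counts were 17 higher and 2 lower, where 9.25% and 7.11% of all genes tested lay. The log2 fold change was above 0 for 30 tested members and below 0 for 6, with a median of 0.57 against 0.01 over all genes tested. Members varied more among control embryos than other genes did. The median SD of their log2 CPM over the 7 controls was 0.48, against 0.33 over all genes tested. Members were also well expressed, with a median of 13.7 reads per kilobase of exon per 1000000 against 6.94.

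**Figure D1:**
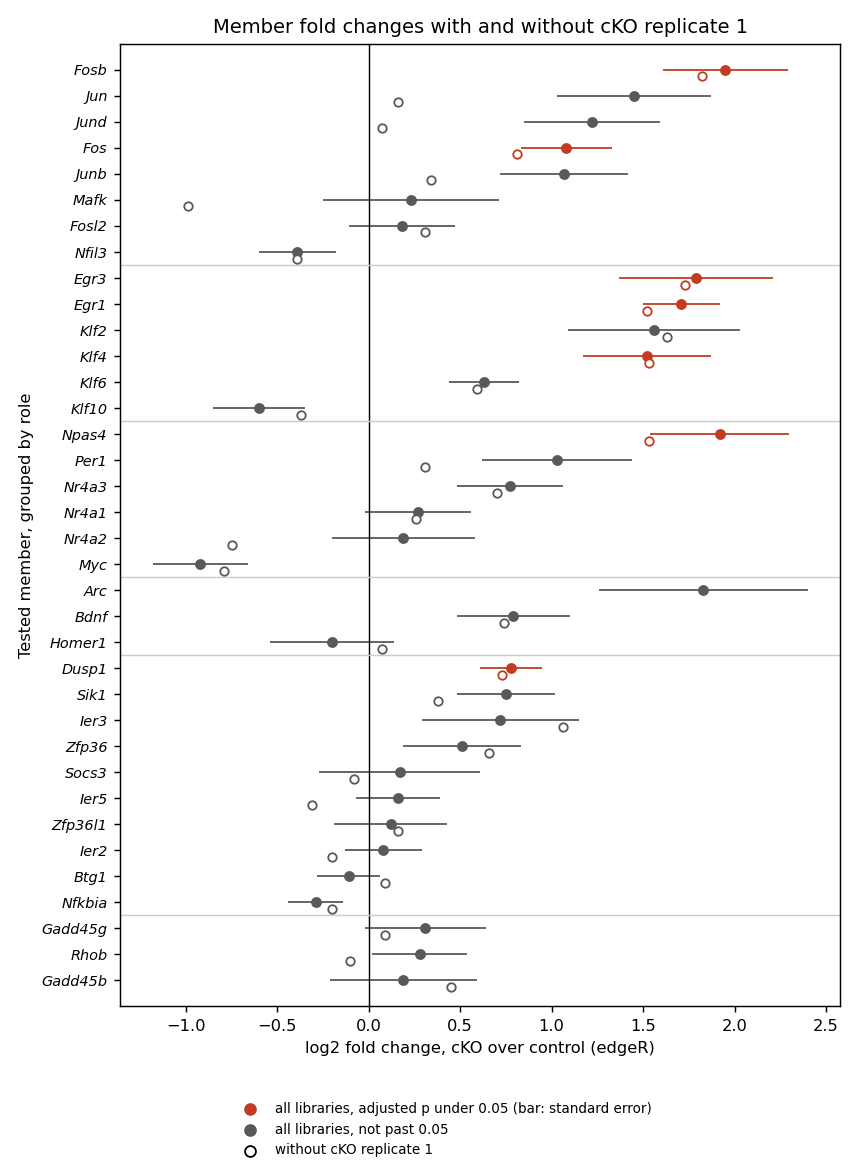
Log2 fold change of cKO over control (horizontal axis, edgeR) for the 36 tested members, grouped by role. Filled points with bars give the fit on all 10 libraries and its SE, red where the adjusted p was under 0.05, and open circles give the fit without cKO replicate 1 (Arc fell under the filter there and has no circle). The 7 red genes keep open circles between 0.73 and 1.82, while those of Jun, Jund and Junb move to between 0.07 and 0.34.

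AP-1 is a dimer of Fos and Jun family proteins, and 11 members encode its subunits or related bZIP factors. Of these, 8 were tested, 2 were called higher and none lower, with a median log2 fold change of 1.07. Fosb (ENSMUSG00000003545.3), a Fos paralog whose product accumulates on repeated stimulation, was at 87.0, 82.8 and 52.2 CPM in the cKO replicates 1, 2 and 3, while the controls ran from 6.72 to 35.6 CPM with a median of 19.0 CPM. Every cKO library lay above every control. Fosb thus had a log2 fold change of 1.95 (SE 0.34, edgeR adjusted p = 0.00215), a 3.86-fold difference. Fos (ENSMUSG00000021250.13), the founding member of the family, had the highest level per length of the 43 genes, a mean of 197 reads per kilobase per 1000000. It was at 984, 452 and 764 CPM in cKO and at 259 to 523 CPM in the controls (median 279 CPM). Replicate 2 of cKO lay inside the control range, which controls 1 and 7 extended upward with 496 and 523 CPM. Its log2 fold change was 1.08 (SE 0.25, edgeR adjusted p = 0.0173).

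The Jun family was led by a single library. Jun, the main partner of Fos, was at 517 CPM in cKO replicate 1 and at 64.8 and 134 CPM in replicates 2 and 3, while the controls spanned 58.3 to 144 CPM (median 76.4 CPM). Replicate 1 thus stood alone above the controls, and the other cKO libraries lay within their range. The log2 fold change of 1.45 (SE 0.42) did not pass the test (edgeR adjusted p = 0.0652) and was 0.16 without replicate 1. Jund, the constitutive Jun protein, was likewise highest in replicate 1, with 287, 66.8 and 59.3 CPM in cKO and 31.2 to 76.5 CPM in the controls (median 62.4 CPM, log2 fold change 1.22, SE 0.37, edgeR adjusted p = 0.0777). Junb, which restrains Jun, was at 154, 37.9 and 69.8 CPM in cKO and at 20.8 to 68.4 CPM in the controls (median 44.4 CPM, log2 fold change 1.07, SE 0.35, edgeR adjusted p = 0.108). Jund and Junb are uncertain in level, since reads in regions shared with another gene are left out of these counts. The sum of the strand-specific counts was 2.57 times the value used for Jund and 1.44 times that for Junb.

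The rest of the AP-1 group gave no call. Fosl2, a late Fos family member, had a log2 fold change of 0.18 over 24.8 to 39.5 CPM in cKO and 14.3 to 40.9 CPM in control. Mafk, a small Maf protein, was at 0.23 with 20.7, 3.91 and 5.05 CPM in cKO against 4.04 to 15.8 CPM. Nfil3, a repressor linked to the circadian clock, stood at 114, 90.2 and 140 CPM in cKO and 94.1 to 206 CPM in the controls (median 157 CPM), with a log2 fold change of -0.39 (SE 0.21) that did not pass the test (edgeR adjusted p = 0.377). The last 3 members of the group were under the filter. Atf3, a stress-induced bZIP factor, had 22, 12 and 11 reads in cKO and 1, 5, 8, 5, 1, 11 and 0 reads in controls 1 to 7, and in CPM all cKO libraries (4.63 to 7.36 CPM) lay above all controls (0 to 3.92 CPM). Maff had 18, 9 and 5 reads in cKO and 1 to 11 in the controls, and Cebpb had 0 to 2 reads in cKO and 0 to 6 in the controls, so for both the groups overlapped.

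Among the 8 zinc-finger factors, 6 were tested and 3 were called higher, with a median log2 fold change of 1.54, the highest of the 6 role groups. Egr1 (ENSMUSG00000038418.7, chromosome 18), a direct target of SRF and MAP kinase signalling, had the smallest p of all members. It was at 236, 172 and 163 CPM in cKO and at 42.1 to 95.0 CPM in the controls, with a median of 52.0 CPM. The lowest cKO library was above the highest control, and the log2 fold change was 1.71 (SE 0.21, edgeR adjusted p = 0.000113), a 3.27-fold difference. Egr3 (ENSMUSG00000033730.4, chr14:70077203-70082614), a family member that acts downstream of calcium signals, was much lower, at 10.0, 7.03 and 10.9 CPM in cKO and 0.643 to 4.58 CPM in the controls (median 2.83 CPM). Its groups did not overlap either, and the log2 fold change was 1.79 (SE 0.42, edgeR adjusted p = 0.0213). Egr3 had a mean of 7.4 reads in the controls and so passed the filter through the cKO libraries. Klf4 (ENSMUSG00000003032.8), a Krüppel-like factor that restrains proliferation, was at 25.1, 29.7 and 20.6 CPM in cKO and 3.92 to 18.4 CPM in the controls (median 7.76 CPM), again without overlap, with a log2 fold change of 1.52 (SE 0.35, edgeR adjusted p = 0.0205).

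Klf6 lay above all controls in every cKO library without passing the test. It was at 237, 221 and 218 CPM in cKO and 95.9 to 206 CPM in the controls (median 150 CPM), with a log2 fold change of 0.63 (SE 0.19, edgeR adjusted p = 0.0714). Klf2, best known from endothelium and quiescent lymphocytes, was at 12.7, 10.9 and 18.5 CPM in cKO and 1.61 to 13 CPM in the controls (median 3.50 CPM), with a log2 fold change of 1.56 (SE 0.47, edgeR adjusted p = 0.0875). Replicates 1 and 2 lay within the control range, and the SD of log2 CPM over the controls, 1.01, was among the 3 largest of the tested members. Klf10, a TGF-beta induced repressor, was at 14.4, 19.5 and 28.6 CPM in cKO and 27.7 to 36.7 CPM in the controls (median 28.3 CPM, log2 fold change -0.60, SE 0.25, edgeR adjusted p = 0.238), with replicate 3 inside the control range. Egr2 and Egr4, counted but not tested, were near the limit of detection. Egr4 had 21, 3 and 2 reads in cKO and 0 reads in 6 controls with 1 read in the other, so all cKO libraries were above all controls, and Egr2 had 6, 5 and 13 reads in cKO and 0 to 8 in the controls. A count of 0 in these libraries allows a level of up to 0.876 to 1.73 CPM (3 reads of the total), counting error only.

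With Klf6 and the 6 called members other than Fos, 7 tested members had all cKO libraries above all controls, where 3.32% of all genes tested did. No tested member had them all below (2.68% of all genes tested). In the plot by library, Fos is the member called higher whose groups overlap.

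**Figure D2:**
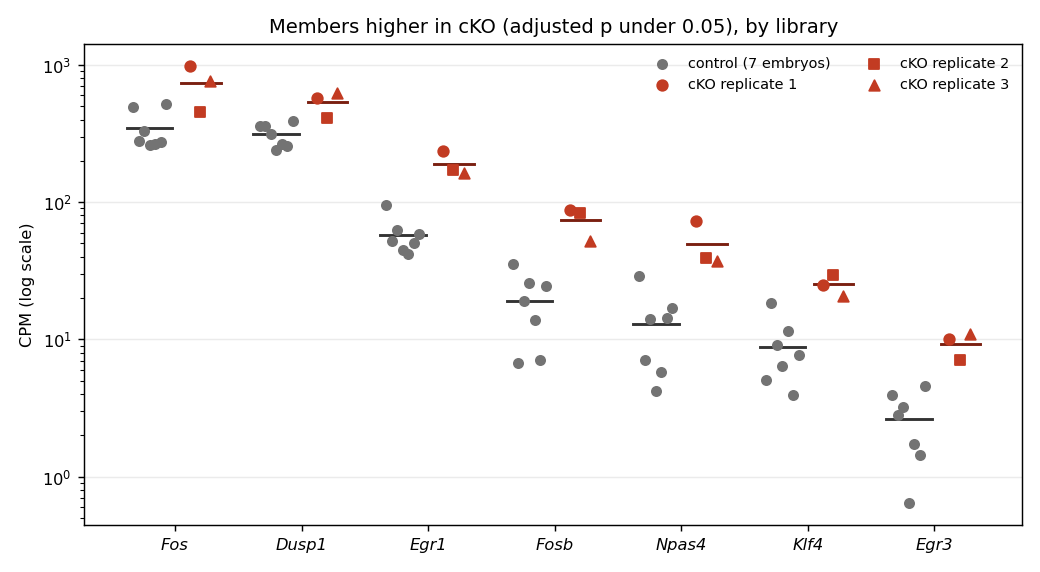
CPM on a log axis for the 7 members called higher in cKO, with control embryos in grey and the 3 cKO embryos in red by replicate, and bars at the group means. For Fosb, Egr1, Egr3, Klf4, Npas4 and Dusp1 the lowest cKO point lies above the highest control, while cKO replicate 2 of Fos (452 CPM) lies below the highest control (523 CPM).

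The 6 nuclear receptors and other transcription regulators were all tested, and 1 was called higher. Npas4 (ENSMUSG00000045903.8), a bHLH-PAS factor induced by calcium entry almost only in neurons, was at 72.6, 39.5 and 37.4 CPM in cKO and at 4.18 to 29.1 CPM in the controls (median 14.0 CPM). The groups did not overlap, although the controls themselves spread widely, with an SD of 0.94 on the log2 scale. Their difference was 1.92 on the log2 scale (SE 0.38, edgeR adjusted p = 0.00651), a 3.79-fold difference. The Nr4a orphan receptors, which follow the same calcium and cAMP signals, gave no call. Nr4a3 was at 53.2, 70.3 and 21.9 CPM in cKO and 21 to 39.1 CPM in the controls (median 30.2 CPM, log2 fold change 0.77, SE 0.29, edgeR adjusted p = 0.18), with replicate 3 near the bottom of the control range. Nr4a1 had a log2 fold change of 0.27 over 42.6 to 63.1 CPM in cKO and 19.1 to 73.8 CPM in control, and Nr4a2 one of 0.19, with 221, 49.2 and 72.8 CPM in cKO and 54.8 to 177 CPM in control.

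Myc, a growth-promoting factor of the early response, had the most negative value of the members. It was at 40.5, 35.9 and 72.8 CPM in cKO and 68.1 to 123 CPM in the controls (median 98.1 CPM), so that replicates 1 and 2 lay below the controls and replicate 3 within them. The log2 fold change of -0.92 (SE 0.26) did not pass the test (edgeR adjusted p = 0.0624). It passed with DESeq2 (adjusted p = 0.021), the test the authors used, and that alternative moves the count of members called lower from 0 to 1. Per1, a clock gene with a CREB-driven early response, was at 26.8, 12.5 and 6.31 CPM in cKO, with only replicate 1 above the controls. The controls ran from 4.38 to 13.9 CPM (median 7.08 CPM). Its log2 fold change was 1.03 (SE 0.41, edgeR adjusted p = 0.209) and fell to 0.31 without cKO replicate 1.

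None of the 3 neuronal effectors passed the test, and their median log2 fold change was 0.79. Arc, which encodes a synaptic protein that promotes AMPA receptor endocytosis, was at 12.0, 5.86 and 5.89 CPM in cKO and 0.292 to 7.08 CPM in the controls (median 2.12 CPM, log2 fold change 1.83, SE 0.57, edgeR adjusted p = 0.0842). It had the largest SD over controls of the tested members, 1.13 on the log2 scale, and with a control mean of 6.3 reads it too passed the filter through the cKO libraries. Bdnf, the neurotrophin, was at 19.1, 13.7 and 21 CPM in cKO and 5.71 to 17.3 CPM in the controls (median 10.2 CPM, log2 fold change 0.79, SE 0.31, edgeR adjusted p = 0.207). For both genes 1 or more cKO libraries lay inside the control range. Homer1, a postsynaptic scaffold gene whose short isoform is the early response product, had a log2 fold change of -0.20 over 18.9 to 59.8 CPM in cKO and 25.4 to 55.2 CPM in control, and its isoforms are summed in these counts.

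The 10 feedback inhibitors and mRNA decay factors were all tested and stood closer to the controls, with a median log2 fold change of 0.17 and 1 call. Dusp1 (ENSMUSG00000024190.6), the nuclear phosphatase that inactivates MAP kinases, was at 578, 407 and 623 CPM in cKO and 238 to 391 CPM in the controls (median 312 CPM). Every cKO library lay above every control, and the log2 fold change was 0.78 (SE 0.17, edgeR adjusted p = 0.0147), a 1.72-fold difference. Sik1, a kinase that feeds back on CREB coactivators, was at 49.2, 21.1 and 33.7 CPM in cKO and 15.0 to 25.5 CPM in the controls (median 22.9 CPM, log2 fold change 0.75, SE 0.27, edgeR adjusted p = 0.158), with replicate 2 inside the control range. Ier2, among the 5 members with the highest level per length, was at 245, 138 and 165 CPM in cKO and 107 to 224 CPM in control (median 173 CPM, log2 fold change 0.08), with replicate 1 above the controls and the other cKO libraries within their range. Nfkbia, which encodes the NF-kappa-B inhibitor, was at 84.3, 89.5 and 114 CPM against 102 to 129 CPM (median 118 CPM, log2 fold change -0.29, edgeR adjusted p = 0.373), with replicates 1 and 2 below the controls. The remaining members of the group gave no call. Btg1, an antiproliferative factor, had a log2 fold change of -0.11 over 187 to 354 CPM in cKO and 245 to 318 CPM in control, and Ier3 one of 0.72 over 11.7 to 40.4 CPM and 3.54 to 18.7 CPM. Zfp36 and Zfp36l1 encode proteins that destabilise AU-rich mRNAs, with values of 0.51 (17.6 to 31.1 and 7.85 to 22.2 CPM) and 0.12 (53 to 61.7 and 11.9 to 74.5 CPM). Socs3, an inhibitor of cytokine signalling, was at 0.17 (3.52 to 13.5 and 4.82 to 15.9 CPM) and Ier5 at 0.16 (69.9 to 166 and 80.3 to 122 CPM). In all 6 the groups overlapped. Zfp36l1 is uncertain in level, since the strand-specific counts sum to 1.69 times the value used.

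Of the 5 growth arrest, GTPase and heat shock members, 3 were tested and none passed. Gadd45g, a growth arrest gene expressed in differentiating neuronal progenitors, was the second most abundant member per length (142 reads per kilobase per 1000000) and was at 246, 110 and 223 CPM in cKO and 70.9 to 270 CPM in control (median 158 CPM, log2 fold change 0.31, edgeR adjusted p = 0.709). Gadd45b had a log2 fold change of 0.19 over 6.35 to 15.6 CPM in cKO and 5.54 to 15.8 CPM in control, and Rhob, a stress-induced small GTPase, one of 0.28 over 73.4 to 142 CPM and 46.8 to 121 CPM. The inducible heat shock genes were at the limit of detection. Hspa1a had 1 read in cKO replicate 1 and 0 in the 9 other libraries, and Hspa1b had 0, 3 and 2 reads in cKO and 0 to 2 reads in the controls. The level of this pair is a lower bound, because only reads with a single alignment were counted and 58.8% of the 50-base windows of Hspa1a also occur in Hspa1b (62.3% in the other direction).

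**Figure D3:**
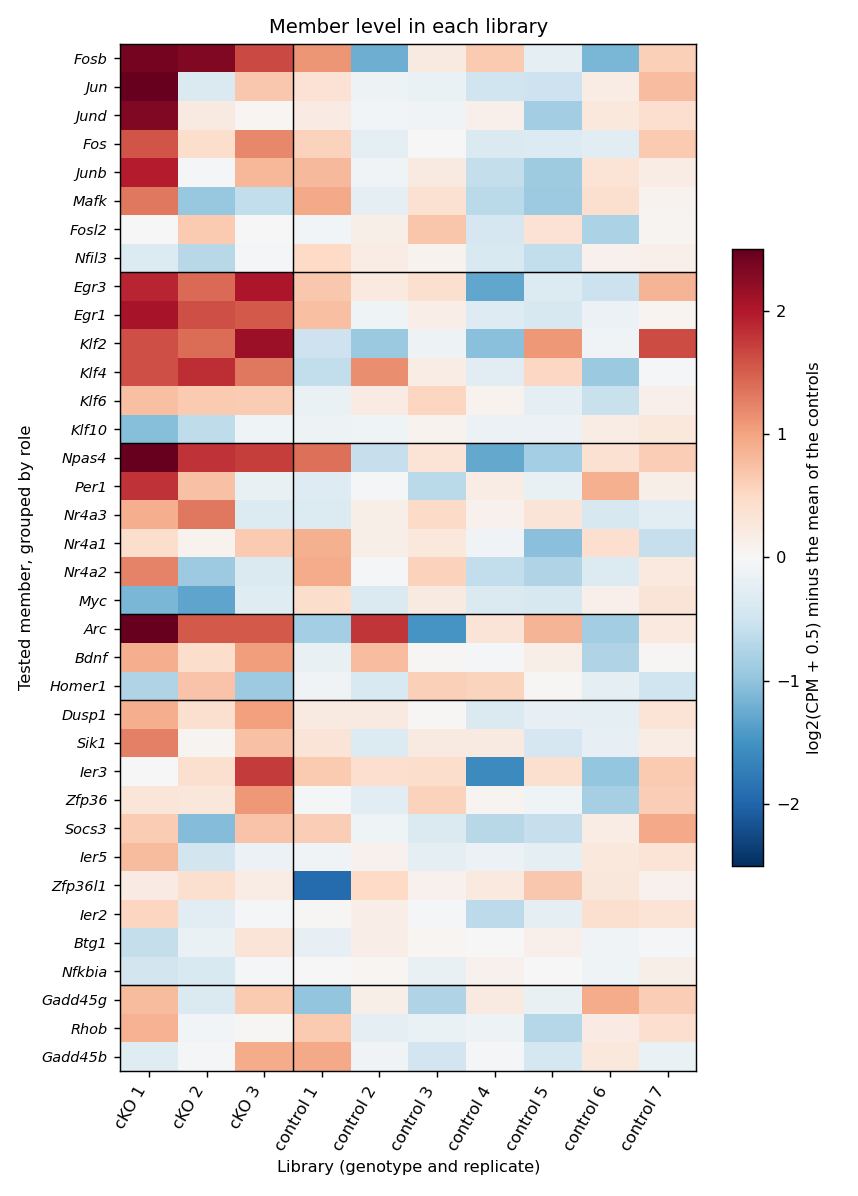
Level of each tested member (rows, by role) in each of the 10 libraries (columns) as log2(CPM + 0.5) minus the mean of the 7 controls, red above and blue below. The cKO columns are red in the rows of Fosb, Egr3, Egr1, Klf4 and Npas4, while cKO replicate 1 is darkest red among the cKO libraries for Jun, Junb and Jund.

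Replicate 1 of cKO contributed unevenly. The member levels summed to 5068, 2909 and 3872 CPM in the cKO libraries and to 2189 to 3211 CPM in the controls (median 2663 CPM), which gives a ratio of the means of 1.48, with replicate 2 inside the control range. Fos, Dusp1, Ier2, Btg1 and Gadd45g made up 47.7% of the control sum. For 16 of the 36 tested members (44.4%) the highest of the 10 libraries was cKO replicate 1, and 18.1% of all genes tested were highest there. In 7 members, Jun, Junb, Jund, Mafk, Nr4a2, Per1 and Arc, replicate 1 was the highest library and at least 2 times as high as either other cKO library, which is 19.4% of the tested members and 5.29% of all genes tested.

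**Figure D4:**
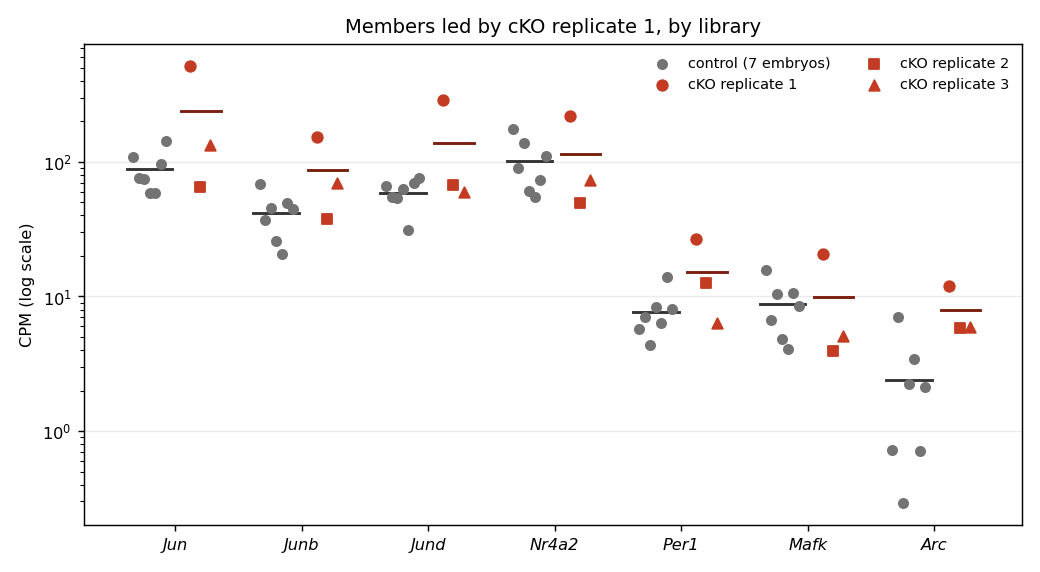
CPM on a log axis for the 7 members in which cKO replicate 1 was the highest library and at least 2 times the other cKO libraries, with controls in grey, cKO in red by replicate, and bars at the group means. The other cKO libraries lie within or near the control points, as for Jun at 64.8 and 134 CPM against 58.3 to 144 CPM.

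Without cKO replicate 1, the members called higher were 4, Fosb, Egr1, Klf4 and Dusp1, all among the 7 above (2.12% of 11440 genes tested were called higher there). The log2 fold change of Fos was then 0.81 (edgeR adjusted p = 0.106), that of Npas4 1.53 (0.0587) and that of Egr3 1.73 (0.0731). Without replicate 2 the calls were 10, with Jun, Junb, Jund and Sik1 added and Klf4 lost (1.40, edgeR adjusted p = 0.0625), where 2.37% of the genes tested were called higher. Without replicate 3 the calls were 6, with Fos (1.05, 0.0705), Egr3 (1.68, 0.081) and Dusp1 (0.66, 0.086) lost, Jund and Nr4a3 added, and Myc called lower, where 1.62% of the genes tested were called higher and 0.727% lower. Fosb and Egr1 were called without each of the 10 libraries in turn. In replicate 3, where microglial markers were highest, 7 tested members were at their highest of all libraries (12.3% of all genes tested were highest there), namely Egr3, Klf2, Bdnf, Dusp1, Zfp36, Btg1 and Ier3. Without it their log2 fold changes were 1.68, 1.33, 0.67, 0.66, 0.20, -0.38 and 0.03 in that order. These genes were picked as highest in that library, so a fall from the fit on all libraries was fixed by the choice. The part of microglia, of endothelium in replicate 2 and of erythroid RNA in replicate 1 in the member values was not tested. The summed Cajal-Retzius markers were higher in all cKO libraries than in any control (of the 5 genes, only Lhx5 overlapped, at 10.5 CPM in replicate 2 against a highest control of 10.6 CPM), so that difference and the genotype cannot be told apart here.

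The share of reads outside genes divided the libraries into a set with a low share (5.47% to 8.64%, cKO replicate 3 and controls 1, 2, 6 and 7) and a set with a high share (12.8% to 16.7%, cKO replicates 1 and 2 and controls 3, 4 and 5). The sign of the difference within the sets says nothing further for the 6 called members whose groups did not overlap, since it could not be otherwise. As a description, the log2 ratios of cKO to control means in the low set (with replicate 3 alone for cKO) and the high set were 0.96 and 1.33 for Fos, 1.49 and 2.12 for Fosb, 1.35 and 2.03 for Egr1, 1.77 and 2.20 for Egr3, 1.23 and 1.6 for Klf4, 1.15 and 2.81 for Npas4, and 0.87 and 0.86 for Dusp1. No test was run within the sets. With this share as a covariate over all 10 libraries, the same 7 members were called higher, with log2 fold changes from 0.86 (Dusp1) to 2.07 (Npas4) and edgeR adjusted p from 0.000274 (Egr1) to 0.0338 (Klf4).

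Promoter sequence was a feature that the choice of members did not use. A cAMP response element (CRE, TGACGTCA) binds CREB, and its short form TGACG, searched on both strands and contained in every full CRE, is frequent in early response promoters. RefSeq promoters (GRCm38.p6, 250 bases before to 50 after each start) were at hand for 36 of the 43 members. Entries for Myc, Egr1, Egr3, Ier2, Sik1, Klf10 and Arc were missing. The short motif was present in 21 of the 36 members (58.3%) and in 23% of the 27025 genes of the table, but member promoters were also richer in G and C (median 62.2% against 52.7% of bases), and the motif holds a CpG. It was present in all 5 called members with an entry (Egr1 and Egr3 had none) and in 11 of 24 tested members without a call (45.8%). These members were not matched for G and C, and the contrast was not tested. The other motifs were searched as fixed patterns, which miss imperfect copies. For the heat shock element, no match therefore does not show that a promoter lacks such elements. Imperfect copies, as in the promoters of Hspa1a and Hspa1b, were not counted. The full CRE was in Dusp1 and Maff (5.56%, against 2.03% of all genes), the AP-1 site TGANTCA in Bdnf and Zfp36l1 (5.56%, 8.97%), the SRF-binding CArG box in Egr2 and Zfp36 (5.56%, 1.81%), and the heat shock element in no member (0.662% of all genes).

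The 250 bases upstream of the start of the 5 called members with an entry are given 5′ to 3′ on the strand of the gene. These genes were each called higher in cKO. TGACG and its reverse complement CGTCA are in capitals. They lie at chr12:85473640-85473889 (plus strand) for Fos, chr7:19310046-19310295 (minus) for Fosb, chr4:55532476-55532725 (minus) for Klf4, chr19:4989972-4990221 (minus) for Npas4 and chr17:26508473-26508722 (minus) for Dusp1.
Fos: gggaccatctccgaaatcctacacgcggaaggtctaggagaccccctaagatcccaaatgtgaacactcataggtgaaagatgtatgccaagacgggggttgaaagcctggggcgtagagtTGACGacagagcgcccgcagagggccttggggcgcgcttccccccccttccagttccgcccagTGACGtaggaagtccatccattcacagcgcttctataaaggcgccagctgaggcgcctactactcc
Fosb: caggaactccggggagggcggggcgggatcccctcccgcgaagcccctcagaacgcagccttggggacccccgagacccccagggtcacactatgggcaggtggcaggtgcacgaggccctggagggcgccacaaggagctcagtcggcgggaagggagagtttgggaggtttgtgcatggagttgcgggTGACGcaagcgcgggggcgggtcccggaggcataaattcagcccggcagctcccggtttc
Klf4: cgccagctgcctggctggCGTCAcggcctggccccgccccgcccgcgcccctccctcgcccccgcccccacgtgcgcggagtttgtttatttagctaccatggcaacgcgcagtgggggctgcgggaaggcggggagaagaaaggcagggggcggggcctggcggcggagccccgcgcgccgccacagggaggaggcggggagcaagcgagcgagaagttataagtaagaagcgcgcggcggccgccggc
Npas4: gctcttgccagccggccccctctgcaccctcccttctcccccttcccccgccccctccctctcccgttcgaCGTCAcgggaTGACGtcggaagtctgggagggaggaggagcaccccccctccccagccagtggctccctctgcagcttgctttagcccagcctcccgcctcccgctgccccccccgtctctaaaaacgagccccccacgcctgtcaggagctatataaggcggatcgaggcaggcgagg
Dusp1: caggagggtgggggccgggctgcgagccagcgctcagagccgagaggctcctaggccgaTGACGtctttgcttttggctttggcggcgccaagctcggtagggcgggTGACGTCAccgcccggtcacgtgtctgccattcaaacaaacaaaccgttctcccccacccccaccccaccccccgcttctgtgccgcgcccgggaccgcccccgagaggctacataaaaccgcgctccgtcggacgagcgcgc
The motif begins 129 and 66 bases before the start in Fos, 60 in Fosb, 232 in Klf4, 179 and 169 in Npas4, and 191, 143 and 140 in Dusp1, where the matches at 143 and 140 overlap in a full CRE.

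Genes upstream of the members and other early response genes were read from written lists. None of 17 SRF, CREB and MEF2 regulators was called in either direction (median log2 fold change 0.06), and Mef2c came nearest at -0.74 (edgeR adjusted p = 0.0512). Mrtfa (-1.06, edgeR adjusted p = 0.122) had all cKO libraries below all controls, as did 2.68% of all genes tested. Mrtfb (0.97, edgeR adjusted p = 0.107) had them all above, as did 3.32%. Of 20 genes of the MAP kinase cascades, 1 was called lower and none higher (median -0.00). It was Mapk7, which encodes ERK5, a kinase that activates MEF2 factors, at 55.5, 35.5 and 45 CPM in cKO and 76.2 to 129 CPM in the controls (median 95.4 CPM, log2 fold change -1.13, SE 0.20, edgeR adjusted p = 0.00391). All cKO libraries of Mapk7 lay below all controls.

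Of 30 other early response and dissociation genes, 23 were tested, 2 were called higher and none lower (median 0.21). Rgs2, which encodes a regulator of G protein signalling and responds to calcium and cAMP, was at 102, 64.8 and 67.3 CPM in cKO and 18.6 to 41.4 CPM in the controls (median 22.5 CPM, log2 fold change 1.65, SE 0.24, edgeR adjusted p = 0.000478), without overlap. Dusp5, a nuclear ERK phosphatase, was at 34.4, 16 and 6.31 CPM in cKO and 1.75 to 6.84 CPM in the controls (median 2.5 CPM, log2 fold change 2.59, SE 0.52, edgeR adjusted p = 0.00465). With a control mean of 9.0 reads, Dusp5 passed the filter through the cKO libraries. Replicate 3 of Dusp5 was inside the control range, and without replicate 1 the value was 1.80 and did not pass (edgeR adjusted p = 0.067).

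None of 12 tested heat shock chaperones of 14 listed was called (median -0.01), with sums of 4350 to 5180 CPM in cKO and 4170 to 5280 CPM in control. Of 12 late neuronal activity genes, which follow the early factors, 6 were tested, 2 were called higher and none lower (median 0.25). Values ran from -1.62 for Inhba, which encodes an activin subunit, to 3.56. Inhba was at 7.36, 2.34 and 15.6 CPM in cKO and 14.6 to 41.1 CPM in the controls (median 19.8 CPM, SE 0.51) and did not pass the test (edgeR adjusted p = 0.0705). Scg2, which encodes a secretory granule protein, was at 140, 63.7 and 90.9 CPM in cKO and 6.78 to 24.8 CPM in the controls (median 13.8 CPM, log2 fold change 2.64, SE 0.31, edgeR adjusted p = 7.41e-05). Vgf, which encodes a neuropeptide precursor, was at 18.1, 3.91 and 9.26 CPM in cKO and 0 to 1.80 CPM in the controls (median 0.643 CPM, log2 fold change 3.56, SE 0.70, edgeR adjusted p = 0.000441). For both genes the groups did not overlap, and Vgf, with a control mean of 2.4 reads, passed the filter through the cKO libraries.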

How the data were processed

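Per the authors' methods, technical replicates were merged, reads were aligned to GRCm38 with STAR 2.5.0c (single alignments only, after conversion with bedtools 2.26.0) and counted on GENCODE M16 genes. The deposited values were raw read counts in an unstranded column and 2 strand-specific columns. The unstranded counts were used, which leave out reads shared by overlapping genes. The kit does not mark strand. Symbols, positions and exon lengths came from GENCODE M21 (GRCm38): 50604 of 53379 genes matched with version, 2670 without and 105 not.

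The 11551 genes that averaged 10 reads or more per library were fitted with edgeR 4.0.16 in R 4.3.3 (TMM factors, quasi-likelihood F test, genotype alone), with Benjamini-Hochberg adjustment over all of them and a threshold of 0.05. DESeq2 1.42.0 and limma 3.58.1 (voom), other scalings and filters, count columns, a covariate, the replicate block and each library left out were alternatives. The procedure was tested on simulated data. SEs are Wald SEs scaled to the edgeR test. The biological coefficient of variation was 28.3%. Library pairs within a genotype differed by far more than counting noise (chi-square per degree of freedom 4.69 to 20.9), so none was counted as a duplicate.

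The members and lists were chosen with earlier results of these data known. Values are given by library for members called, with an unadjusted p under 0.05, with all cKO libraries outside the control range, among the 5 highest per length or the 3 most variable among controls, and as reads for members under the filter; the others are given by fold change and range. Beyond the members, Cdkn1c and called genes of the pathway lists are named. Mef2c, Mrtfa, Mrtfb, Inhba, marker genes and the libraries of Mafk and Nr4a2 were added after their values were seen. Figures were drawn with matplotlib 3.10.9. Reads are not molecules, so count limits cover counting error only. Depth, 1738220 to 3362487 reads, sets these limits. Embryos were the replicates.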

Additional observations from a re-analysis of the deposited data

Results flagged for a closer look

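Among the 7 controls, 4 members held a library far from the other 6, by the gap to its nearest neighbour over the range of the group. This was tested in 37 groups, and chance marks about 1 in 20. Control replicate 1 accounted for 3 of them. Egr1 was at 95.0 CPM in that embryo and at 42.1 to 63.0 CPM in the other controls (gap over range 0.605), and all cKO libraries were above 95.0 CPM. Gadd45b was at 15.8 CPM there and at 5.54 to 9.63 CPM in the others (0.603). Zfp36l1 was low in the same embryo, at 11.9 CPM against 50.4 to 74.5 CPM (0.616), and without it the log2 fold change of Zfp36l1 turned from 0.12 to -0.05. Per1 was at 13.9 CPM in control replicate 6 and at 4.38 to 8.36 CPM in the others (0.582). The cause was not tested for any of them.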

How the results depend on the processing

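Fosb and Egr1 were called higher under every alternative with a test. The members called higher were 8 with DESeq2 (Klf6 added, adjusted p = 0.0365), 8 with limma-voom (Klf2 added, 1.88, adjusted p = 0.0405), 15 with no filter on low counts and 4 to 10 with 1 library left out. Those called lower were 1 (Myc) with DESeq2 and with no filter, and 0 to 1 with a library left out. With no filter, 4 other early response genes, 1 heat shock chaperone and 4 late neuronal activity genes were called higher and 1 late neuronal activity gene and 1 SRF, CREB or MEF2 regulator lower. That regulator count was also 1 with DESeq2, filterByExpr and the covariate, and 0 to 1 with a library left out. The late neuronal count of lower calls was also 1 with DESeq2 and 0 to 1 with a library left out, and the counts of higher calls in the other early response and late neuronal lists were then 1 to 2 each. Members with all cKO libraries above the controls numbered 7 to 11 and below 0 to 3 with a library left out. The 11 came without cKO 2 (6.68% of all genes tested were above there) and the 3 without cKO 3 (6.81% below). The ratio of summed member CPM was 1.27 to 1.67. Of the members with a promoter entry, 58.3% held TGACG and 5.56% the full CRE. Over all genes, no filter called 701 genes higher and 260 lower of 26537, DESeq2 300 and 210, limma-voom 214 and 83, and the edgeR test with the filter 262 and 102. The cause was not tested.

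Replicate numbers did not pair the samples: same-numbered cKO and control libraries correlated at 0.041, -0.103 and -0.211 in their deviations, and the best matches of cKO 1 to 3 were controls 6, 4 and 7. With the replicate block, 5 members were called higher (Fos, Fosb, Egr1, Npas4 and Klf2). Egr3 (1.48, adjusted p = 0.29), Klf4 (1.26, 0.192) and Dusp1 (0.63, 0.259) no longer passed. Over all genes 141 were called higher and 72 lower. The counts of lower calls among the regulators and the late neuronal genes were 1 each, and values reversed to -0.05 for Fosl2, -0.22 for Mafk, -0.04 for Nr4a1 and -0.44 for Nr4a2. With limma-voom Mafk was at -0.05.

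With a library left out, values changed sign in members near 0, none of them called: log2 fold changes ran from -0.07 to 0.34 for Fosl2, -0.99 to 0.60 for Mafk, -0.75 to 0.55 for Nr4a2, -0.91 to 0.07 for Homer1, -0.08 to 0.56 for Socs3, -0.05 to 0.21 for Zfp36l1, -0.38 to 0.09 for Btg1, -0.20 to 0.25 for Ier2 (-0.01 without control 4), -0.31 to 0.39 for Ier5, -0.26 to 0.45 for Gadd45b and -0.10 to 0.46 for Rhob. With the strand-specific columns summed, Junb was at 0.72 and Jund at 1.48. With 3 cKO embryos, leaving out 1 of them ended 1 to 3 of the 7 calls, and members under 10 mean reads could not be tested.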
